A study of Mus musculus with 6 samples.

Results

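Transcripts of 10 genes characteristic of the choroid plexus were examined in brain RNA of wild-type and Top2b-low mice. The members were chosen by symbol as a gene set, namely Ttr, Kl, Folr1, Clic6, Aqp1, Otx2, Sostdc1, Slc4a5, Enpp2 and Tmem72. They lie on chromosomes 18, 5, 7, 16, 6, 14, 12, 6, 15 and 6 in that order. All 10 were matched to 1 Ensembl identifier each, of 78298 in the deposited table, and all 10 passed the filter on low values (a mean of at least 10 normalised counts over the 6 libraries). The study compared 3 WT and 3 Top2b-L (Homo) male mice, here called wild type and Top2b-low, with 1 library of polyadenylated RNA per mouse. The protocol names the left brain as the tissue and the series text whole brain. Top2b-low animals were homozygous for a CRISPR/Cas9 allele that adds an auxin-inducible degron tag to the start of the coding sequence of Top2b, the topoisomerase IIβ gene. No drug was given to either group. The labels give an age of 10 weeks in one place and of 3.5 months in another. Wild type replicate 3 and Top2b-low replicate 3 carry library names starting with N22, and the name of the latter ends in dNdN, a term the labels do not explain. Library names of the other 4 start with X or NT.

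The choroid plexus is a sheet of secretory epithelium over fenestrated capillaries that hangs into the brain ventricles and makes cerebrospinal fluid. Its epithelial cells move salt, bicarbonate and water into the fluid, secrete carrier proteins and enzymes, and bring folate from blood to brain. They form a small part of the tissue, so in bulk brain RNA these transcripts serve as a gauge of how much plexus a dissected sample holds. In such samples a smaller number of plexus cells and less RNA per cell cannot be told apart.

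Library totals ran from 16963067 to 35246703 reads, with the N22 libraries the deepest. The neuronal gene Snap25, a marker of brain tissue, lay between 41303 and 48348 normalised counts. The 10 members together took between 0.101% and 0.132% of the reads. Ttr and Enpp2 made up 91.8% to 93.6% of the members' summed level in each library, so that sum says little of the other 8 genes. Top2b, the targeted gene, stood at 3160, 3014 and 2485 normalised counts for wild-type mice against 2152, 2314 and 1965 for Top2b-low ones. The groups did not overlap, with a log2 difference of −0.42 (unadjusted p = 0.00629, limma adjusted p = 0.99997). Markers of other cells differed between libraries. The granule cell receptor gene Gabra6 of the cerebellum averaged 0.65 normalised counts in the N22 libraries and 2119 in the other 4, and all 8 cerebellar granule markers were called lower there. The summed level of 5 globin and erythroid genes was 114262 in Top2b-low replicate 1 and between 3705 and 30385 in the other 5 libraries.

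RefSeq promoter windows (GRCm38.p6, 250 bases before to 50 after an annotated start) were present for 5 of the 10 members, namely Kl, Aqp1, Otx2, Slc4a5 and Tmem72, in 8 windows. They were searched for TAATCC on both strands (GGATTA on the other), the core bound by OTX-type homeodomain factors, since Otx2 is itself a member. It was found in 1 of these windows, at 1 of the 4 alternative starts of Otx2, against 7.06% of all 32851 windows. A match of these letters is a description and not a binding site, and its absence says only that the letters are not in the window. The 3 upstream stretches below are shown because they hold no annotated exon of their gene, and they belong to the klotho, aquaporin and OTX2 genes whose levels are compared in the next paragraphs. The fourth line gives the stretch around the match, in capitals. Unlike the others it is exon sequence, since all 250 bases before that alternative start lie in annotated Otx2 exons.
Kl, chr5:150952357-150952606, plus strand: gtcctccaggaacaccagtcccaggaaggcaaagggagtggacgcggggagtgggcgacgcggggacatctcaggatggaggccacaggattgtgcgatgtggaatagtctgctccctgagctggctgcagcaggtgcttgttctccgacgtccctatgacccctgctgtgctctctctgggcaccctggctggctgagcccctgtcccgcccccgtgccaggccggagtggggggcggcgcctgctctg
Aqp1, chr6:55336049-55336298, plus strand: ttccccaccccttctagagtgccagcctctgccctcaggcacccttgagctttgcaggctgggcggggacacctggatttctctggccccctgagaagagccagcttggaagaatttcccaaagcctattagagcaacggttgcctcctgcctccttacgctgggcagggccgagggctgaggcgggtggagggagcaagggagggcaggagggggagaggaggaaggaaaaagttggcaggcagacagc
Otx2, chr14:48667645-48667894, minus strand: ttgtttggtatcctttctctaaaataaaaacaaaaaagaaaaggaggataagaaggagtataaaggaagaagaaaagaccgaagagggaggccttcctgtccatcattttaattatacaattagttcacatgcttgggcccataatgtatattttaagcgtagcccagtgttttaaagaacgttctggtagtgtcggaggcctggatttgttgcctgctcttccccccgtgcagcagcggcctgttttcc
Otx2 alternative start, chr14:48665303-48665332, minus strand: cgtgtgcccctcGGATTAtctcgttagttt

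Levels between genes were compared per kilobase of merged exon length (GENCODE vM21), as means over the 6 libraries. Ttr stood at 10244 normalised counts per kilobase and Enpp2 at 1805, far above the rest. Clic6 followed at 119 per kilobase. Kl (62.8) and Sostdc1 (59.9) came next, and their ranges over libraries overlapped (54.5 to 72.1 and 48.6 to 73.0). Folr1 (41.1), Aqp1 (34.7) and Otx2 (32.4) formed the next step, the range of Otx2 (27.2 to 43.1) overlapping those of both Folr1 and Aqp1. Slc4a5 (22.2) and Tmem72 (13.9) were lowest, and their ranges overlapped too (16.0 to 26.2 and 10.5 to 17.1). These steps hold for merged exon length only. The median annotated transcript is much shorter for Otx2 (1033 bases against 4221), Folr1 (747 against 2297) and Slc4a5 (2190.5 against 5804). For Aqp1 and Sostdc1 both lengths are equal. The order below Clic6 thus depends on the measure of length.

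Transcripts of the secreted proteins did not differ between genotypes beyond the spread of the mice. Ttr encodes transthyretin, the carrier of thyroid hormone and of the retinol-binding protein in cerebrospinal fluid. The wild-type mice, in replicate order, gave 13827, 11163 and 12708 normalised counts, the Top2b-low mice 9981, 11641 and 13574. The highest and the lowest value lay in replicate 1 of each genotype and the groups overlapped. Means of 12566 ± 1338 and 11732 ± 1798 (SD, n = 3 each) corresponded to a log2 difference of −0.10 with a 95% interval of −0.41 to 0.20. Enpp2, the gene of autotaxin, which makes lysophosphatidic acid and is also made by oligodendrocytes, counted 11827, 10822 and 9038 against 9768, 11427 and 9697. Its log2 difference was −0.03 (interval −0.31 to 0.24), and oligodendrocyte markers, 11 of 12 of which had a negative log2 difference, included none that passed the test. Among them Mog averaged 1258 ± 84.7 and 1191 ± 105 normalised counts. Kl, the co-receptor klotho that is also shed into the fluid, counted 673, 600.3 and 529 against 545, 658 and 508. Sostdc1, a secreted antagonist of BMP and Wnt signals, counted 129.96, 86.5 and 97.4 against 98.4, 126 and 102. For both genes the 2 ranges largely coincided, with log2 differences of −0.08 and 0.07.

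**Figure D1:**
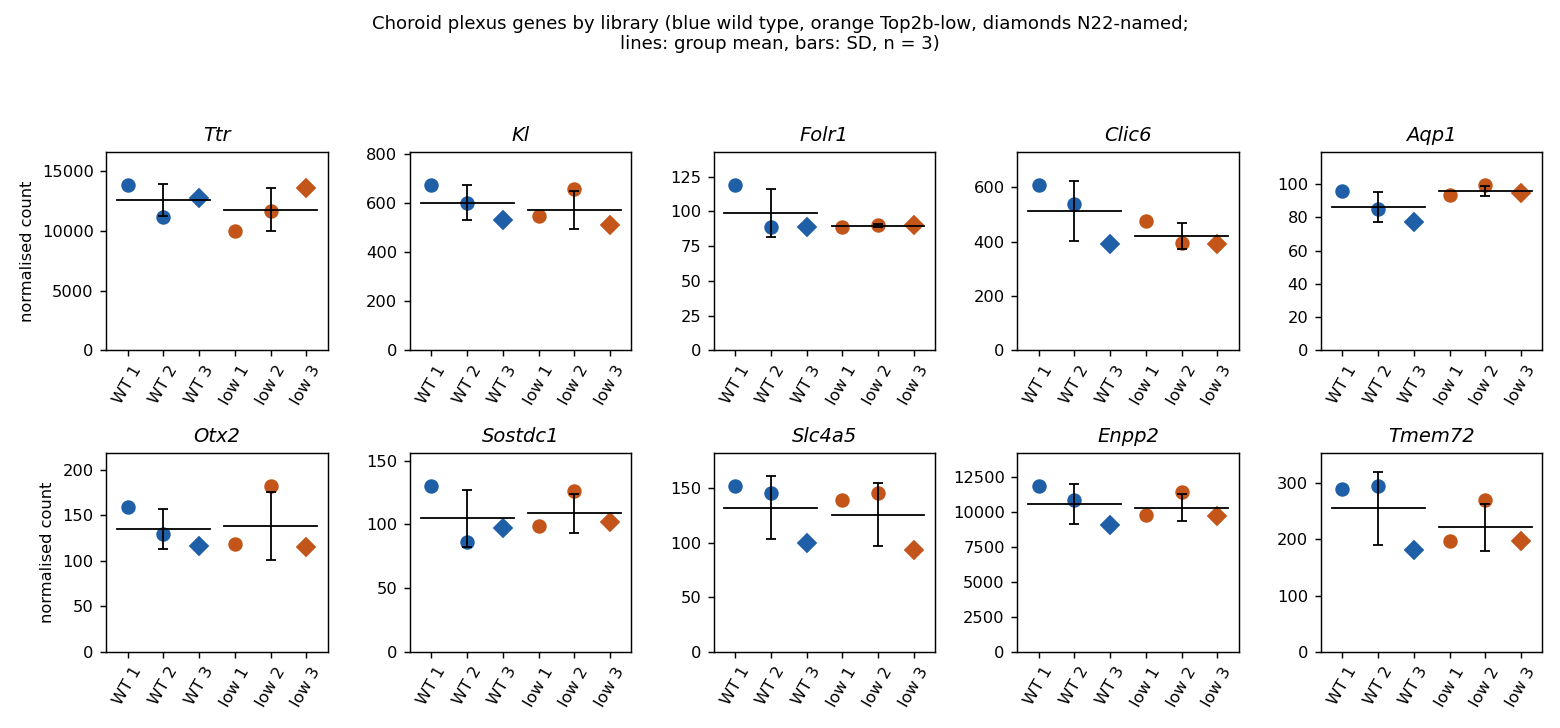
Normalised count of each of the 10 genes (vertical axes, starting at 0) in the 6 libraries (horizontal axes), with circles for libraries named otherwise and diamonds for the N22 libraries; lines are group means and bars the SD of 3 mice. In every panel the wild-type and Top2b-low points overlap, and the Slc4a5 diamonds, at 99.6 and 92.9, lie below all circles.

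Transporters and channels of the epithelium did not pass the test between genotypes either. Clic6, a chloride intracellular channel family member, had the largest genotype difference of the 10 genes. Wild-type libraries had 609, 536 and 391 normalised counts, and those of Top2b-low mice 476, 396 and 390. Wild type replicate 3 lay as low as the lowest Top2b-low library. The means were 512 ± 111 and 421 ± 48.2 (SD, n = 3 each) and the log2 difference −0.27 (SE 0.18, unadjusted p = 0.172, limma adjusted p = 0.99997). It was −0.45 without wild type replicate 3 and −0.13 without wild type replicate 1. The former omission leaves an N22 library only among the Top2b-low mice, so −0.45 also holds part of the library-set difference of Clic6 (−0.35). In the 4 libraries outside N22 the genotype difference of Clic6 was −0.40. The latter omission also leaves the library sets uneven between genotypes, and with a term for library set it gave −0.18. Slc4a5, a sodium bicarbonate cotransporter, counted 152, 145 and 99.6 against 139, 146 and 92.9. Aqp1, the water channel of the apical membrane, counted 96.0, 85.2 and 77.5 against 93.5, 99.5 and 94.7. It had the largest positive difference of the 10 genes, a log2 value of 0.16 with an interval of −0.19 to 0.50. Folr1, the folate receptor that carries folate into the fluid, counted 119, 89.0 and 88.9 against 88.6, 89.8 and 90.5. Wild type replicate 1 was high for this gene and the other 5 libraries lay within 88.6 and 90.5.

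The transcription factor and the remaining membrane protein did not pass the test either. Otx2, the homeodomain factor that maintains plexus identity, counted 159, 129 and 117 against 118, 182 and 115, so that its highest and its lowest value both came from Top2b-low libraries. An antisense gene, Otx2os1, overlaps Otx2 and was at 3.64 to 12.3 normalised counts. Folr1 overlaps Anapc15 on the opposite strand (307 to 396) and Enpp2 overlaps Gm26684 (29.5 to 53.2). Whether reads were assigned by strand is not given in the sources used here, so part of the counts of these 3 members is uncertain. Tmem72, a transmembrane protein, counted 290, 295 and 181 against 197, 269.5 and 198. Its log2 difference was −0.19 (interval −0.71 to 0.34) and became −0.42 without wild type replicate 3. That omission leaves an N22 library only among the Top2b-low mice, so −0.42 also holds part of the library-set difference of Tmem72 (−0.46). In the 4 libraries outside N22 the genotype difference of Tmem72 was −0.34.

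Of the 10 members 0 passed limma's test between genotypes, where 0% of 17391 tested genes did. At an unadjusted p under 0.05 there were 262 genes and no member among them, and the count tests of edgeR and DESeq2 each called 0 genes as well. The limma adjusted p was 0.99997 for each member and the lowest under any of the alternatives run was 0.593, for Clic6. The groups overlapped for all 10, where 5.74% of tested genes had groups that did not. The median log2 difference was −0.08 over the 10 members, 7 of which were lower, and −0.0021 over all tested genes. Intervals allow for differences that these 6 mice could not resolve, from 19.2% lower to 18.4% higher for Enpp2 and from 35.3% lower to 39.5% higher for Slc4a5. The two-sided exact permutation test gave p between 0.3 and 0.9 for the 10 genes, with 0.1 the smallest that 3 against 3 allows.

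**Figure D2:**
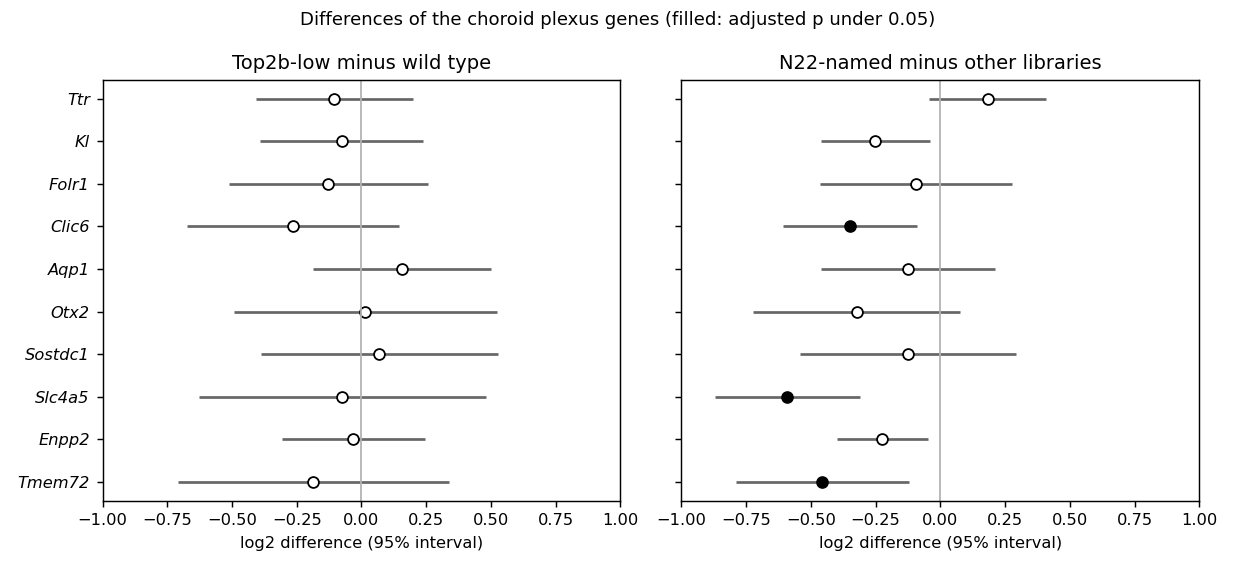
Log2 difference of each gene (horizontal axis) with its 95% interval from limma, between genotypes at the left and between library sets at the right, with filled points for an adjusted p under 0.05. All 10 intervals at the left cross 0, and the 3 filled points at the right are Clic6 (−0.35), Slc4a5 (−0.59) and Tmem72 (−0.46).

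Between libraries the members varied, and their average did not separate the genotypes. Wild type replicate 1 held the highest value of 7 of the 10 genes, Top2b-low replicate 2 of 2 (Aqp1 and Otx2) and wild type replicate 2 of 1 (Tmem72). On the log2 scale the members averaged 0.25 above their 6-library mean in wild type replicate 1 and 0.12 above it in Top2b-low replicate 2. They averaged 0.02 in wild type replicate 2 and −0.08 in Top2b-low replicate 1. The N22 libraries lay lowest, at −0.18 in wild type replicate 3 and −0.13 in Top2b-low replicate 3. Each genotype thus contributed 1 of the 2 libraries highest in these transcripts and 1 of the 2 lowest. The coefficient of variation over the 6 libraries was 12.3% for Ttr and 10.5% for Enpp2, where counting error alone gives 0.937% and 0.992%. For Aqp1 it was 8.95% against a counting error of 10.7%, and for Folr1 12.9% against 10.5%. At 68 to 160 reads per library, variation of Aqp1 was thus not detectable beyond counting error.

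Further genes of the choroid plexus, 34 taken from a second list, also held no called gene between genotypes. All 34 were matched and 32 were tested. Slco1a5 and Cltrn, below the filter, had means of 4.60 and 4.03 normalised counts. In the comparison of genotypes 0 of the 32 passed, 24 were lower, and the median log2 difference was −0.07. The highest-expressed were Cab39l, a scaffold of kinases acting on ion cotransporters (764 normalised counts over 6 libraries, log2 difference −0.01), the growth factor binder Igfbp2 (663, −0.03), the sulfatase Sulf1 (642, 0.05) and the copper transporter Slc31a1 (587, −0.0066). Car12, a carbonic anhydrase, Col9a3, a collagen chain, Spint2, a protease inhibitor, and Slc29a4, a monoamine transporter, had log2 differences of 0.10, −0.10, −0.18 and −0.06. For 3 of the 32 genes all Top2b-low libraries lay below all wild-type ones and for 0 above, where 5.74% of tested genes had groups apart in either direction. They are named here after their values were seen. The prolactin receptor Prlr counted 340, 348 and 331 against 272, 288 and 223, a log2 difference of −0.39 with an unadjusted p of 0.0149 and a limma adjusted p of 0.99997. Rdh5 and Pon3 were the other two, at −0.21 and −0.35. Of these 32 genes wild type replicate 1 held the highest value for 13, the most of any library. Their centred log2 average was lowest in Top2b-low replicates 3 (−0.12) and 1 (−0.09), while wild type replicate 3 stood at −0.03. That order was unlike the members', but it held for the average only. The centred log2 median was lowest in the N22 libraries, as for the members. It was −0.12 in Top2b-low replicate 3, −0.08 in wild type replicate 3 and −0.02 in Top2b-low replicate 1.

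**Figure D3:**
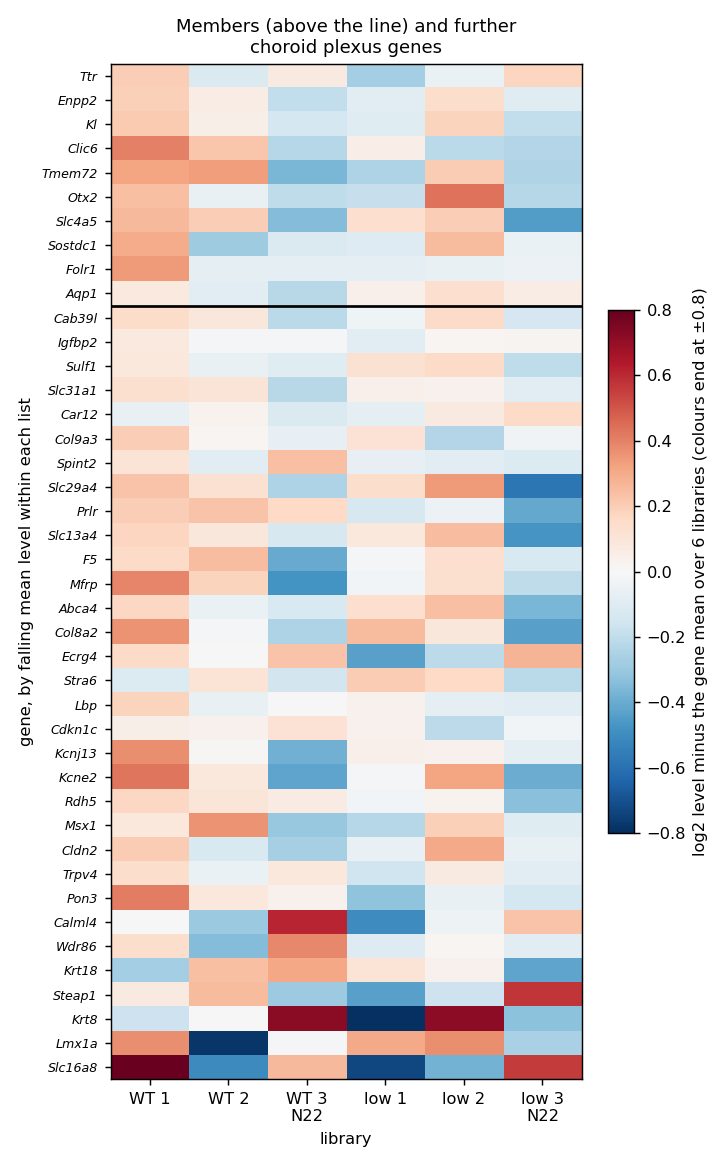
Log2 level of each gene in each library minus the gene's mean over the 6 libraries (colour, ending at 0.8 in either direction), for the 10 members above the line and the 32 tested further genes below it, ordered by mean level within each list. Among the members wild type replicate 1 is red throughout and the N22 columns are mostly blue, while the genes of lowest level at the bottom scatter most.

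Ion transport and transthyretin partners, lists of genes that many brain cells express, held no called gene between genotypes either. Of 15 ion transport genes 13 were lower, with a median log2 difference of −0.04. The carbonic anhydrase Car14 averaged 264 ± 12.0 and 219 ± 5.32 normalised counts (log2 difference −0.27, unadjusted p = 0.0308, limma adjusted p = 0.99997). Its groups did not overlap. The inositol cotransporter Slc5a3 and the carbonic anhydrase Car2 stood at −0.43 and −0.09. Of 10 genes of thyroid hormone and retinol handling 5 were lower. Dio3 and Dio2, enzymes that inactivate and activate thyroid hormone, stood at −0.60 and −0.17, and the retinol carrier Rbp4 at 0.13.

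Markers of tissues that border the plexus are given for the same genotype comparison. Ependymal genes, 9 of 12 of which were lower, had summed levels of 831 to 944 normalised counts in wild type and 695 to 966 in Top2b-low mice, and Foxj1, the regulator of motile cilia, averaged 228 ± 23.7 and 205 ± 47.2. Ccdc153 averaged 76.9 ± 19.5 and 69.7 ± 4.74. Meningeal genes summed to 15206 to 17178 and 12846 to 15249, with Slc6a13 at 190.0 ± 19.4 and 199 ± 53.8 and Slc47a1 at 91.0 ± 29.8 and 94.5 ± 31.7, and 7 of the 12 were lower. Most of that sum was Ptgds, the prostaglandin D synthase, named after its values were seen. It averaged 11946 ± 509 and 10016 ± 491 with groups that did not overlap, a log2 difference of −0.25 (unadjusted p = 0.00868, limma adjusted p = 0.99997). Of the 12 meningeal genes it alone had groups apart, where 5.74% of all tested genes did. Endothelial genes summed to 4690 to 5494 and 5054 to 5579, with Cldn5 at 459 ± 81.0 and 526 ± 7.47. Of these 9 genes 3 were lower and 6 higher, where 8806 of all 17391 tested genes were lower. No marker of these lists was at 0 in all libraries and none was called. Their part in the members' values was not tested.

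In the N22 libraries 9 of the 10 members were lower than in the other 4 and Ttr was not. With genotype in the model limma called 3 members lower, Slc4a5, Clic6 and Tmem72, and 0 higher. Of all tested genes 16.7% were called lower and 11.3% higher, and 3 of 10 genes is not read as different from that share. The members' median log2 difference was −0.24 and that of all tested genes −0.0046. Slc4a5 averaged 96.2 ± 4.72 normalised counts in the N22 libraries (SD, n = 2) and 145 ± 5.22 in the others (SD, n = 4). This is 33.9% lower, and the log2 difference was −0.59 (SE 0.13, limma adjusted p = 0.00708). Both N22 values lay below all others, and the exact permutation test gave p = 0.0667, the smallest that 2 against 4 allows. The difference was −0.57 within the wild-type and −0.61 within the Top2b-low libraries, where 1 N22 library against 2 gave limma adjusted p of 0.0696 and 0.0920. The call was also lost when either N22 library was left out, at limma adjusted p of 0.0699 without wild type replicate 3 and 0.0883 without Top2b-low replicate 3.

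Clic6 and Tmem72 were called at limma adjusted p of 0.0473 and 0.0456. Clic6 averaged 391 ± 0.90 in the N22 libraries and 504 ± 90.3 in the others, a log2 difference of −0.35. Tmem72 averaged 189 ± 12.0 and 263 ± 45.3, a log2 difference of −0.46. Their differences were −0.55 and −0.69 within wild type but −0.15 and −0.22 within Top2b-low libraries, where Clic6 was already low in replicate 2 and Tmem72 in replicate 1. Whether these differ between genotypes was tested with an interaction term, which had an adjusted p of 0.997 for both, where 0.023% of tested genes passed it. Each call was lost in 13 of 19 alternatives and the adjusted p ranged from 0.00571 to 0.586 for Clic6 and from 0.0053 to 0.548 for Tmem72. Leaving out wild type replicate 3 left Clic6 at −0.15 and Tmem72 at −0.22, neither called, and leaving out Top2b-low replicate 3 left them at −0.55 and −0.69, not called.

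The other members that were lower in the N22 libraries did not pass the test. Enpp2 averaged 9367 ± 466 and 10961 ± 896, a log2 difference of −0.22 (adjusted p = 0.0590), and Kl 519 ± 14.8 and 619 ± 58.4, a difference of −0.25 (adjusted p = 0.0731). Otx2 stood at −0.32, Sostdc1 at −0.13, Aqp1 at −0.12 and Folr1 at −0.09. For 5 members, Kl, Clic6, Otx2, Slc4a5 and Enpp2, both N22 values were below all others, a pattern that 26.5% of tested genes shared. In the further list 7 of 32 genes were called lower and 0 higher, against 16.7% and 11.3% of all tested genes, a share near that background. They included Cab39l (−0.27, adjusted p = 0.0325) and Slc29a4 (−0.62, adjusted p = 0.00374). The others were Kcne2, Mfrp, F5, Col8a2 and Slc13a4. Some genes of this list are also expressed by other cells, and markers of those cells differed as well. Called lower in the N22 libraries, against 16.7% of all tested genes, were 6 of 12 meningeal, 4 of 12 oligodendrocyte, 4 of 6 astrocyte, 3 of 9 endothelial, 1 of 12 ependymal and 1 of 6 neuronal markers. Called higher were 1 endothelial and 1 neuronal marker, and 8 of 12 ependymal markers had a positive difference. Their part in the members' differences was not tested.

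Ttr had the only positive library-set difference of the 10 members, and it did not pass the test. It averaged 13141 ± 612 there and 11653 ± 1609 in the other 4, a log2 difference of 0.18 (interval −0.04 to 0.41, limma adjusted p = 0.208). The difference was 0.033 within wild-type and 0.33 within Top2b-low libraries, and the highest Ttr value of all, 13827, lay outside N22. The ratio of Ttr to another gene within a library does not depend on how libraries are scaled, so it was read for each of the other 9 members. For 8 of 9 both N22 libraries had a higher ratio than any other library, the exception being Aqp1. The share of all tested genes with this pattern was not determined, so the count is not read as particular to the members. Per normalised count of Slc4a5 there were 91.1, 76.8, 71.8 and 79.9 of Ttr in the libraries outside N22 and 128 and 146 in the N22 libraries. Per count of Enpp2, which has the next highest level and little counting error, there were 1.02 to 1.17 and then 1.41 and 1.40. These ratios were chosen after the values had been seen and share their numerator, so no test is given.

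**Figure D4:**
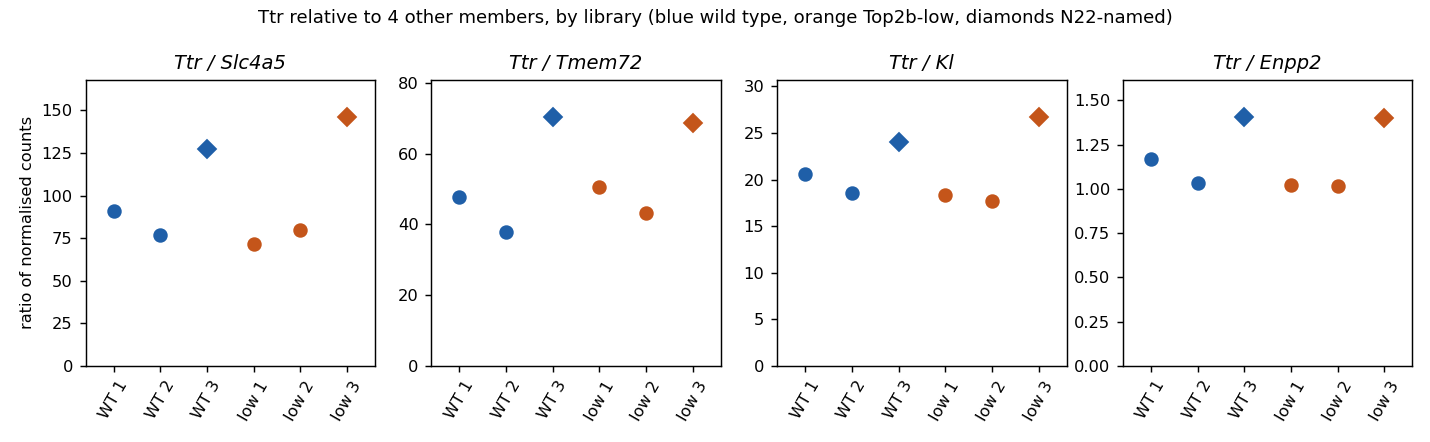
Ratio of the normalised count of Ttr to that of Slc4a5, Tmem72, Kl and Enpp2 (vertical axes, from 0) in each library, coloured by genotype and with diamonds for the N22 libraries. In each panel both diamonds lie above all circles, at 68.7 and 70.4 against 37.9 to 50.7 for Tmem72 and at 24.0 and 26.7 against 17.7 to 20.5 for Kl.

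Transcript length moved with the library-set difference across the whole table. Tested genes with an annotated length (94.96% of them) were put into 10 equal bins of merged exon length. The median log2 difference between N22 and the other libraries was lower in each successive bin, from 0.28 in the shortest (up to 1560 bases) to −0.18 in the longest (9603 bases or more). The course was alike within each genotype, from 0.24 to −0.18 in wild type and from 0.32 to −0.16 in Top2b-low mice, whereas the median genotype difference lay between −0.02 and 0.02 in all bins. Ttr, with 1186 bases, is the shortest member. Its 0.18 was 0.10 below the median of its bin, with 38.8% of the bin's genes lower still. Slc4a5, with 5804 bases, was 0.54 below the median of its bin, with 6.36% of genes lower. All 10 members lay below the median of their length bin, by a median of 0.23, as did most genes of several other lists. Below it too were 24 of 32 further choroid plexus genes, 11 of 12 meningeal, 9 of 12 oligodendrocyte, 8 of 12 ependymal, 5 of 9 endothelial, 6 of 6 astrocyte, 8 of 8 granule cell, 5 of 5 blood and 1 of 6 neuronal markers.

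**Figure D5:**
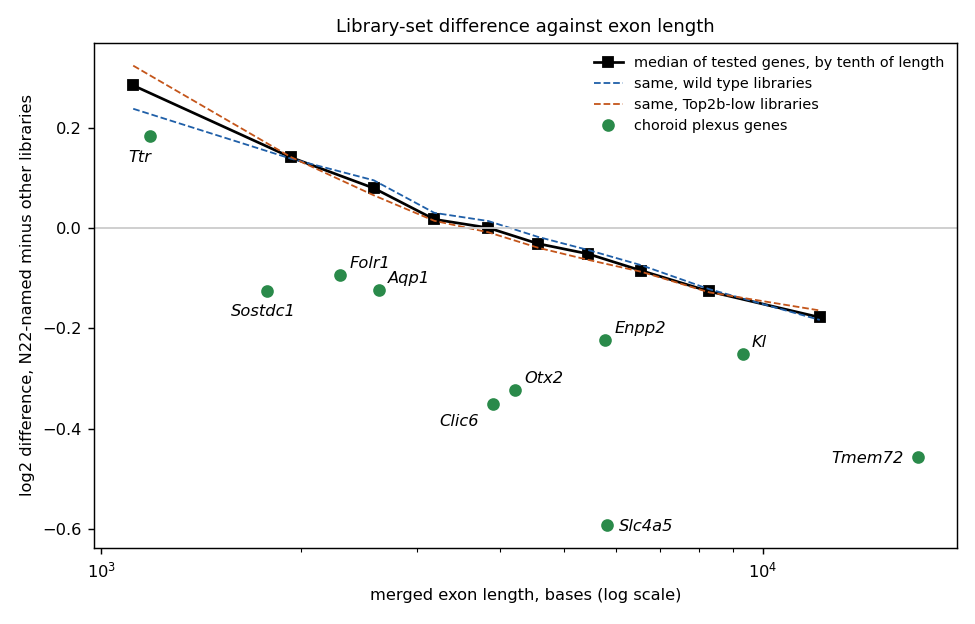
Log2 difference between N22 and other libraries (vertical axis) against merged exon length in bases (horizontal, log scale), with squares for the median of the tested genes in each length bin, dashed lines for the same within each genotype and green points for the 10 members. The medians descend from 0.28 to −0.18 and all 10 green points lie below them, Ttr included.

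Refitting after each library had been centred within length bins left Slc4a5 and Clic6 called lower (−0.53, adjusted p = 0.0121, and −0.35, adjusted p = 0.0473) and ended the call of Tmem72 (−0.28). Ttr then turned to −0.10 (adjusted p = 0.519), so that all 10 members were lower in the N22 libraries. When length was taken as the median of a gene's annotated transcripts instead, Ttr stayed positive at 0.12, Slc4a5 stayed called (−0.54, adjusted p = 0.0104) and Clic6 and Tmem72 were not called. The sign of Ttr thus hung on how length was measured, and that of the other 9 members did not. The median transcript of Otx2 has 1033 bases against 4221 in merged exons, and that of Tmem72 8967 against 17177, so both measures are rough for these genes. Both centrings were added after the data were examined. Whether length, tissue content or another property of the N22 libraries accounts for these differences was not tested.

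By likeness of course, the genes nearest to the members' average were mostly not plexus genes. Pearson's r with the average of the 10 centred members was computed over the 6 libraries for 12957 named genes with a mean of at least 50. It is given as a description only, since 6 libraries that include the N22 set leave many genes at a high r. The 8 highest were Snx6 (0.98), Rad9a, Stau2, Zfp120, Tex30, Cnot11, Emcn and Zfp959 (0.97), and the lowest were Rnase4 (−0.99) and Wdr31 (−0.98). Of the further plexus list Kcne2, a potassium channel subunit of the epithelium, came highest, at place 24 with r = 0.95. Among the members themselves, r with the mean of the other 9 was 0.97 for Enpp2, 0.95 for Kl and 0.08 for Ttr. Over the 4 libraries outside N22, too few to read further, Ttr gave 0.98.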

How the data were processed

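Polyadenylated RNA of 6 brain libraries, 3 wild type and 3 Top2b-low, was measured by RNA-seq. The authors deposited a signal for each gene in each library, a count scaled by library. Per the submitters' processing notes RSEM and mm39 were used. No source used here states the aligner, annotation or strand setting. Every value (100%, tolerance 1e-06 reads) was a whole multiple of the smallest value above 0 in its library, so whole counts, called reads, were recovered from the deposited signal. Their scaling factors, 0.798 to 1.69, equalled DESeq2's. Symbols came from GENCODE vM21 (51498 identifiers matched, 1 gene by a RefSeq synonym), and no coordinates of the table are given.

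Genes with a mean of at least 10 were compared on log2(normalised count + 1), which understates the change of low genes, with limma 3.58.1 (intensity trend, two-sided, Benjamini-Hochberg over 17391 genes, threshold 0.05) in R 4.3.3. The genotype fit had no covariate and the N22 fit had genotype. As alternatives edgeR 4.0.16 and DESeq2 1.42.0 were run on the reads, with other pseudocounts, filters, scalings, terms and omitted replicates. Fits were tested on simulated counts with a single fixed dispersion and changes larger than any member's difference. That check does not show how the fits perform on differences of the size reported here. Intervals are 95%. Counting errors cover counting only.

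The members and lists were chosen with earlier results of these data known. Named were the members, the 8 highest of the further plexus list, 4 each by smallest unadjusted p of the ion transport and transthyretin lists, leading markers of other cell types and the genes most and least like the members. Some genes that this rule names are not reported here. Replicates were treated as separate mice, since the series text counts mice; p-values measure the spread between these samples. Chi-square per degree of freedom within groups was 4.00 to 33.7, and no pair of libraries agreed within sampling noise. The titles number replicates 1 to 3 in both groups. Deviations of same-numbered libraries from their group means correlated at 0.33, 0.35 and 0.68. These values cannot show pairing, since replicate 3 is the N22 library in both groups. Wild type replicate 1 correlated as well with Top2b-low replicate 2 (0.37). The main fits used no pairing, and a replicate block was run only as an alternative.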

Additional observations from a re-analysis of the deposited data

How the results depend on the processing

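Between genotypes all 10 members kept their direction and stayed uncalled in 17 alternatives, of which 1 used only the 4 libraries outside N22. That one gave −0.20 for Ttr, −0.20 for Folr1, −0.40 for Clic6, −0.34 for Tmem72 and −0.10 for Enpp2. Leaving out replicates moved the log2 difference from −0.22 to 0.012 for Ttr, −0.18 to 0.0087 for Kl, −0.22 to 0.013 for Folr1, −0.20 to 0.19 for Otx2, −0.10 to 0.23 for Sostdc1, −0.26 to 0.13 for Slc4a5 −0.14 to 0.054 for Enpp2, −0.45 to −0.13 for Clic6, −0.42 to −0.01 for Tmem72 and 0.08 to 0.24 for Aqp1, uncalled throughout. Without the N22 term the ends of these ranges included 0.0060 for Ttr without Top2b-low replicate 1, 0.011 for Folr1 and 0.139 for Otx2 without wild type replicate 1, and −0.057 for Sostdc1 without wild type replicate 2. With the N22 term kept, leaving out wild type replicate 1 gave 0.012 for Ttr, 0.013 for Folr1 and 0.024 for Enpp2, wild type replicate 2 gave −0.076 for Otx2, Top2b-low replicate 1 gave 0.0036 for Kl and 0.052 for Enpp2, and Top2b-low replicate 2 gave −0.168 for Otx2 and −0.034 for Sostdc1. Without the N22 term, omitting any replicate leaves the library sets uneven between genotypes, so such values also hold part of the library-set difference. The replicate block ended or made no member's call, and with it limma called 0 genes of all tested (1169 at an unadjusted p under 0.05), edgeR 0 and DESeq2 15. DESeq2 with the N22 term called 14. Omitted replicates gave 0 to 64 genes, 1 without Top2b-low replicate 1 and 64 without it when the N22 term was kept.

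Between library sets 4864 genes were called, against 2181 without the intensity trend, 3210 in wild-type libraries, 2193 in Top2b-low libraries and 1711 to 4576 with a replicate left out (1945 without wild type replicate 3, 1711 without Top2b-low replicate 3). Ttr reversed to −0.10 with length-decile centring, and Folr1 to 0.021 in Top2b-low libraries. Clic6 was not called with no filter, no trend or no genotype term (−0.35 each), with quantile normalisation or transcript-length centring (−0.30 each), with edgeR (−0.33), with DESeq2 (−0.34) or in Top2b-low libraries (−0.15). Tmem72 was not called with no filter, no trend or no genotype term (−0.46 each), with quantile normalisation (−0.42), with DESeq2 (−0.45), with length (−0.28) or transcript-length centring (−0.27) or in Top2b-low libraries (−0.22). Slc4a5 was not called within one genotype or without either N22 library (−0.57 and −0.61). Enpp2 was called with DESeq2 (−0.21), in wild-type libraries (−0.32) and without Top2b-low replicate 1 (−0.29), as was Kl without that replicate (−0.31). With a replicate left out the ranges were 0.033 to 0.33 for Ttr, −0.31 to −0.19 for Kl, −0.21 to 0.021 for Folr1, −0.55 to −0.15 for Clic6, −0.61 to −0.57 for Slc4a5, −0.32 to −0.12 for Enpp2 and −0.69 to −0.22 for Tmem72. Ttr was called without wild type replicate 1 (0.27, limma adjusted p = 0.0498). In fits with 1 library in an arm, that library is assumed to vary like the others. The causes were not tested, and 3 mice a group and 68 to 194 reads for the lowest members limit what can be resolved.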
